A study of Mus musculus with 8 samples.

Results

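Liver sinusoidal endothelial cells (LSEC) were taken from single-cell RNA sequencing of whole mouse liver. A cell barcode was kept when it held more than 500 genes and under 25% mitochondrial UMIs (unique molecular identifiers, 1 for each captured mRNA molecule). Among kept barcodes, an LSEC had at least 2 UMIs of Clec4g, Stab2 and Lyve1 together, at least 1 UMI of Ptprb, Kdr and Egfl7 together, at most 1 UMI of Vwf, and none of Csf1r (macrophages), Cd3e (T cells) or Cd79a (B cells). This rule found 2008 LSEC among 80474 kept cells of 88581 barcodes. Of these, 2000 lay in the 5 mice with 20 or more LSEC, the only mice whose LSEC were compared gene by gene. The values of the genes in the rule chose the cells, so they are given as a description, with no test.

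The study profiled livers of wild-type C57BL/6 mice by droplet sequencing of 3' ends (10x Genomics, V3 chemistry), with 1 library a mouse, to describe the cells of fibrotic non-alcoholic steatohepatitis (NASH). The 2 control mice had a normal diet. The 3 HFD+F+CCl4 mice had a high-fat diet, fructose solution and intraperitoneal CCl4, and the 3 WD+F+CCl4 mice a western diet with the same fructose and CCl4. CCl4 is a liver toxin that injures the tissue around the central veins, no NASH group received its diet without CCl4, so diet and toxin cannot be told apart, and the labels and methods used here state no age. Both models together are called NASH, and no gene was deleted or marked in any group. The 5 mice with enough LSEC were control replicates 1 and 2, HFD+F+CCl4 replicates 1 and 2, and WD+F+CCl4 replicate 3. Values in several mice follow this order throughout, the 2 controls first.

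LSEC line the sinusoids, the capillaries of the liver. Their wall is pierced by open pores (fenestrae) and has almost no basement membrane, and scavenger receptors such as Stab1, Stab2, Mrc1 and Fcgr2b clear waste molecules and immune complexes from blood. In injured liver they are known to lose pores and lay down a basement membrane, a change called capillarization that is followed by genes of other vessels such as Cd34 and Plvap. Healthy LSEC also differ along the lobule, from the portal vein, where blood enters, to the central vein, where the cells send Wnt ligands to hepatocytes.

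Depth differed between the mice. The median LSEC held 1309.5 and 1047.5 UMIs in the control mice, 2682 and 1873 UMIs in the HFD+F+CCl4 mice and 3550 UMIs in the WD+F+CCl4 mouse. The sums over all LSEC of a mouse were 608390 and 180035 UMIs in the control mice and 2131098, 143526 and 3480315 UMIs in NASH. Levels are given as CPM, the UMIs of a gene divided by all UMIs of the LSEC of that mouse, on the counts-per-million scale. Libraries shared 901 barcode sequences, of which 732 were kept cells. The barcode of 31 LSEC was also a kept cell of another library, and none was an LSEC in 2 libraries.

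The LSEC of control replicate 2 stood apart. A UMI of Ptprc, the CD45 antigen of leukocytes that endothelial cells lack, was found in 61.4% of them, against 62.7% of the other kept cells of that mouse. The shares with a Ptprc UMI were 24.6% of LSEC in control replicate 1, 12.5% and 18.0% in the HFD+F+CCl4 mice and 11.2% in the WD+F+CCl4 mouse, where 82.6% to 89.3% of other kept cells had one. Only 29 of the 140 LSEC of control replicate 2 held 4 or more UMIs of Clec4g, Stab2 and Lyve1. The results for the lists of endothelial genes and other pathways are therefore given also without control replicate 2 and without all LSEC that held a Ptprc UMI.

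The control and NASH libraries also differed across all cells. The mitochondrial gene mt-Nd3 was at 6.57 and 0 CPM in control LSEC and 3846, 2606 and 2882 CPM in NASH LSEC, and at 3.04 and 4.68 CPM and 1291, 785 and 1199 CPM in the other kept cells. Gm28438, an unprocessed pseudogene of mitochondrial origin on chromosome 1, went the other way, from 904 and 383 CPM to 1.41, 0 and 2.299 CPM in LSEC and from 449 and 255 CPM to 1.38, 0.155 and 0.579 CPM in other cells. The mitochondrial gene mt-Nd4l stood at 75.6 and 83.3 CPM in control and 7.98, 6.97 and 2.87 CPM in NASH LSEC. Gm28438 and mt-Nd4l were chosen after their values were seen. A difference between the control and NASH libraries cannot be told apart from the groups.

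The markers that name LSEC were high in these cells and low elsewhere. Clec4g, a C-type lectin, was at 1259 and 944 CPM in control and 1918, 1888 and 2474 CPM in NASH LSEC, against 34.9 and 122 CPM and 95.7, 11.9 and 126 CPM in the other kept cells. The hyaluronan receptor Stab2 was at 1599 and 1094 CPM and 1453, 1317 and 1727 CPM, and Lyve1, which also binds hyaluronan, at 279 and 278 CPM and 640.05, 314 and 817 CPM. The rule had selected on all of them. The endothelial genes Kdr, the main VEGF receptor, at 1948 and 722 CPM and 2169.8, 1972 and 2230.3 CPM, and Ptprb, at 2924 and 1666 CPM and 2804, 2313 and 2587 CPM, were also in the rule. Gpr182, an atypical chemokine receptor of sinusoids that was not in the rule, was at 1329.7 and 394 CPM in control and 1768, 1805 and 2158 CPM in NASH LSEC, and at 43.4 and 79.6 CPM and 101, 16.1 and 119 CPM in other cells. For Gpr182, Kdr and Ptprb control replicate 2 was the lowest mouse. Gpr182, the only one of these markers outside the rule, was higher in LSEC than in the other kept cells of each of the 5 mice, by the least in control replicate 2, where LSEC and other cells also held Ptprc UMIs at like shares.

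Cells just outside and just inside the threshold differed in degree. Cells that met the other criteria with 0 or 1 UMI of Clec4g, Stab2 and Lyve1 numbered 2008 and 628, and their summed level of Pecam1, Cdh5, Gpr182 and Stab1 was 355 and 1001 CPM. The 307 LSEC with 2 UMIs and the 194 with 3 UMIs were at 2505 and 3709 CPM, and the 1355 LSEC with 5 or more at 5664 CPM. These values are a description of the threshold.

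The share of LSEC varied more within the NASH groups than between groups. LSEC made 3.17% (342 of 10788, exact Clopper-Pearson 95% interval 2.85 to 3.52) and 3.36% (140 of 4168) of kept cells in the control mice. They made 5.93% (663 of 11179), 0.494% (50 of 10123) and 0.0469% (5 of 10654) in the HFD+F+CCl4 mice, and 0.0167% (2 of 11999), 0.0102% (1 of 9846) and 6.87% (805 of 11717) in the WD+F+CCl4 mice. By this rule each model held 1 mouse above both controls and 2 mice below them. The closeness of the controls depended on the setting. With 4 or more UMIs of Clec4g, Stab2 and Lyve1 they were at 1.92% and 0.696%, and NASH minus control was 0.544 percentage points. Among kept cells without a Ptprc UMI the controls were at 18.7% and 3.47%, and HFD+F+CCl4 replicate 2, at 3.54%, was not below both. The means were 3.26% ± 0.133 in control (SD, n = 2), 2.16% ± 3.28 in HFD+F+CCl4 (SD, n = 3) and 2.30% ± 3.96 in WD+F+CCl4 (SD, n = 3). NASH minus control was -1.04 percentage points (exact two-sided permutation test over mice, p = 0.714, smallest possible p = 0.0357, adjusted p = 1). WD+F+CCl4 minus HFD+F+CCl4 was 0.142 percentage points (exact two-sided permutation test, p = 1, smallest possible p = 0.1, adjusted p = 1). The intervals cover counting error only, and how many LSEC were lost when the tissue was dissociated was not tested.

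**Figure D1:**
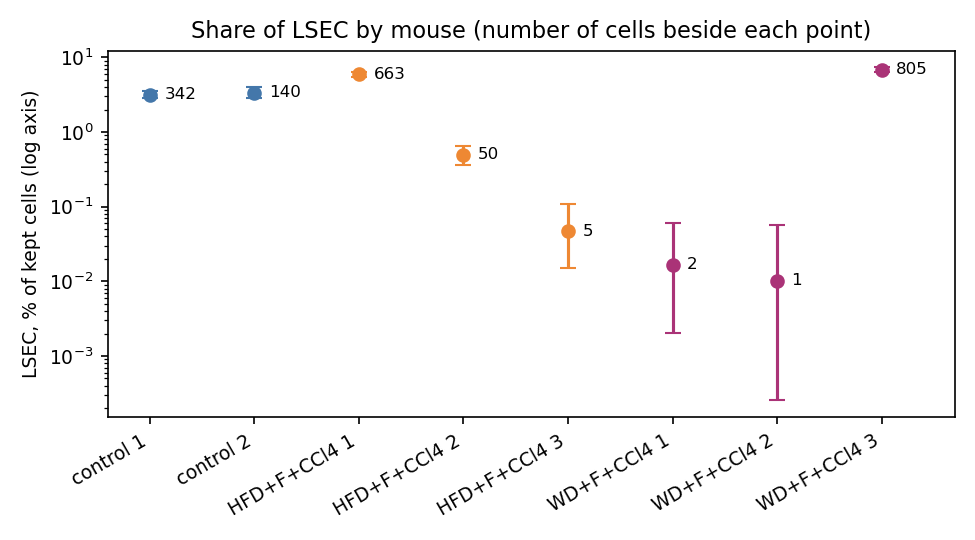
Share of LSEC among the kept cells of each mouse, in percent on a log axis. Bars are exact 95% binomial intervals and the number beside each point is the number of LSEC; HFD+F+CCl4 replicate 1 and WD+F+CCl4 replicate 3 lie above both control mice, and 4 NASH mice lie below 0.5%.

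Between NASH and control, 879 of 10346 genes tested (8.5%) differed in LSEC, 267 higher (2.58%) and 612 lower (5.92%) in NASH (edgeR quasi-likelihood test on sums per mouse, Benjamini-Hochberg adjusted p under 0.05). Of the 267 rises, 212 (79.4%) were higher in LSEC than in the other kept cells of all 3 NASH mice, against 43.9% of all genes tested. Of the 612 falls, 324 (52.9%) were higher in the other kept cells than in LSEC of both control mice, against 24.5% of all genes tested. For 409 falls (66.8%, against 10.7% of all genes tested) the other kept cells were also lower in NASH by 1 or more on the log2 scale. For 141 rises (52.8%, against 8.79% of all genes tested) they were also higher by 1 or more. The calls rest on the same LSEC values, so the shares higher in either kind of cell are a description. The fit held 5 mice with 2 residual degrees of freedom, it assumed that the single WD+F+CCl4 mouse varied like the others, and p-values measure the spread between these mice. Leaving out control replicate 2 leaves control replicate 1 as the only control and 1 residual degree of freedom, from the 2 HFD+F+CCl4 mice, so that each adjusted p without it assumes that the lone control varied like them. In that fit 905 of 11510 genes (7.86%) differed, and without the LSEC that held a Ptprc UMI 247 of 8776 genes (2.81%), of which 235 were among the 879.

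RNA of blood cells and hepatocytes in the LSEC sums moved with the groups. The 4 leukocyte markers Ptprc, Coro1a, Laptm5 and Cd52 together were at 2145 and 3905 CPM in control and 575, 1017 and 304 CPM in NASH LSEC, with Cd52 the most abundant in each mouse. All 4 fell. The 9 markers of T and NK cells, all of which fell, summed to 1106 and 2022 CPM in control and 26.3, 97.5 and 18.4 CPM in NASH LSEC. Their most abundant gene was Nkg7 in both controls, and Cd3d, Cd3g, Trbc2 and Trac were at 0 in HFD+F+CCl4 replicate 2 and Klrb1c and Ncr1 at 0 in the WD+F+CCl4 mouse. In the other kept cells the same sum also stood lower in NASH, at 184, 691 and 720 CPM against 3336 and 2649 CPM.

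The 5 markers of B cells, led by Igkc in each mouse, summed to 968 and 4638 CPM in control and 188, 355 and 54.6 CPM in NASH LSEC, and 4 of 5 fell. Ms4a1 (CD20) was at 0 in all 3 NASH mice. Of the 16 hepatocyte markers 12 fell, and their sum was 7694 and 8576 CPM in control LSEC and 2357, 3957 and 1224 CPM in NASH LSEC. The other kept cells were at 5494 and 7040 CPM and at 2646, 2783 and 2270 CPM, so that hepatocyte RNA was lower in the NASH libraries both in LSEC and in the other kept cells. Alb led the list in both controls. Neutrophil markers, led by S100a9 in both controls, summed to 950 and 1022 CPM and to 116, 69.7 and 361 CPM, and all 4 tested of 5 fell. Over the lists the median log2 fold change was -6.02 for T and NK cells, -4.63 for B cells, -2.67 for leukocytes, -2.34 for neutrophils and -1.90 for hepatocytes, against 0.00 for all genes tested.

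Macrophage markers moved in both directions. Their sum, led by the lysozyme gene Lyz2 in each mouse, was 817 and 1989 CPM in control and 2323, 1435 and 980 CPM in NASH LSEC, against 2820 and 3397 CPM and 14834, 12361 and 16200 CPM in other kept cells. Of 12 tested of 13 markers 6 rose (C1qa, C1qb, C1qc, Cd5l, Adgre1 and Vsig4) and Cybb fell. C1qa, a chain of complement C1q, was at 13.1 and 5.55 CPM in control and 307, 202 and 129.9 CPM in NASH LSEC (log2 fold change 4.08 ± 0.50, adjusted p = 2.41e-06), below the 1837, 987 and 1663 CPM of the other NASH cells. Marco, a macrophage scavenger receptor and the largest rise by the fit, was at 0 UMIs in both controls and at 86.8, 20.9 and 87.9 CPM in NASH, at least 22.6-fold higher (floor of 3 UMIs over the control group, adjusted p = 2.26e-05). It was at 169, 34.5 and 598 CPM in the other cells of the same mice. The part of RNA from other cells in any gene result was not tested, and values in the other kept cells are given beside many of the genes named below.

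Vascular endothelial cells of other vessels, which the rule leaves out by their Vwf UMIs, varied in number between the mice. Cells with 2 or more Vwf UMIs, a UMI of Ptprb, Kdr or Egfl7 and at most 1 UMI of Clec4g and Stab2 numbered 10 and 0 in the control mice and 53, 39 and 51 in the NASH mice of the gene comparisons, and 13, 7 and 14 in the 3 NASH mice left out of them. Vwf itself, which the rule allows at 1 UMI a cell, was at 1.64 and 0 CPM in control and 20.6, 27.9 and 18.4 CPM in NASH LSEC. In vascular cells of the 3 NASH mice Plvap was at 1356, 1462 and 1699 CPM, Cd34 at 165, 237 and 222 CPM, Ccn2 at 748, 1099.7 and 1101 CPM, Ednrb at 693, 1006 and 1121 CPM and the proteoglycan gene Bgn at 2363, 2462 and 2099 CPM, each above the LSEC of the same mouse given below. Esm1 was at 9.97, 0 and 0 CPM there and Col4a1 at 499, 312 and 429.7 CPM, each below LSEC, and no vascular cell of these mice held a UMI of Angpt2. The part of vascular cells in the LSEC values was not tested.

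The 12 largest falls among genes with a mean of 30 CPM or more included Gzma, Mup11, Iglc2, Cd226, Sult2a8, Trbc1, Ighd, Il2rb, Xcl1 and 2 predicted genes. Mup11 and Sult2a8 are hepatocyte genes and the other named ones genes of B, T or NK cells. Gzma, the granzyme A of killer cells, was at 90.4 and 405 CPM in control and 0, 0 and 1.44 CPM in NASH LSEC, and at 343 and 439.8 CPM and 3.74, 136 and 76.5 CPM in other kept cells. The falls of these lists are reported as RNA measured in the LSEC barcodes.

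**Figure D2:**
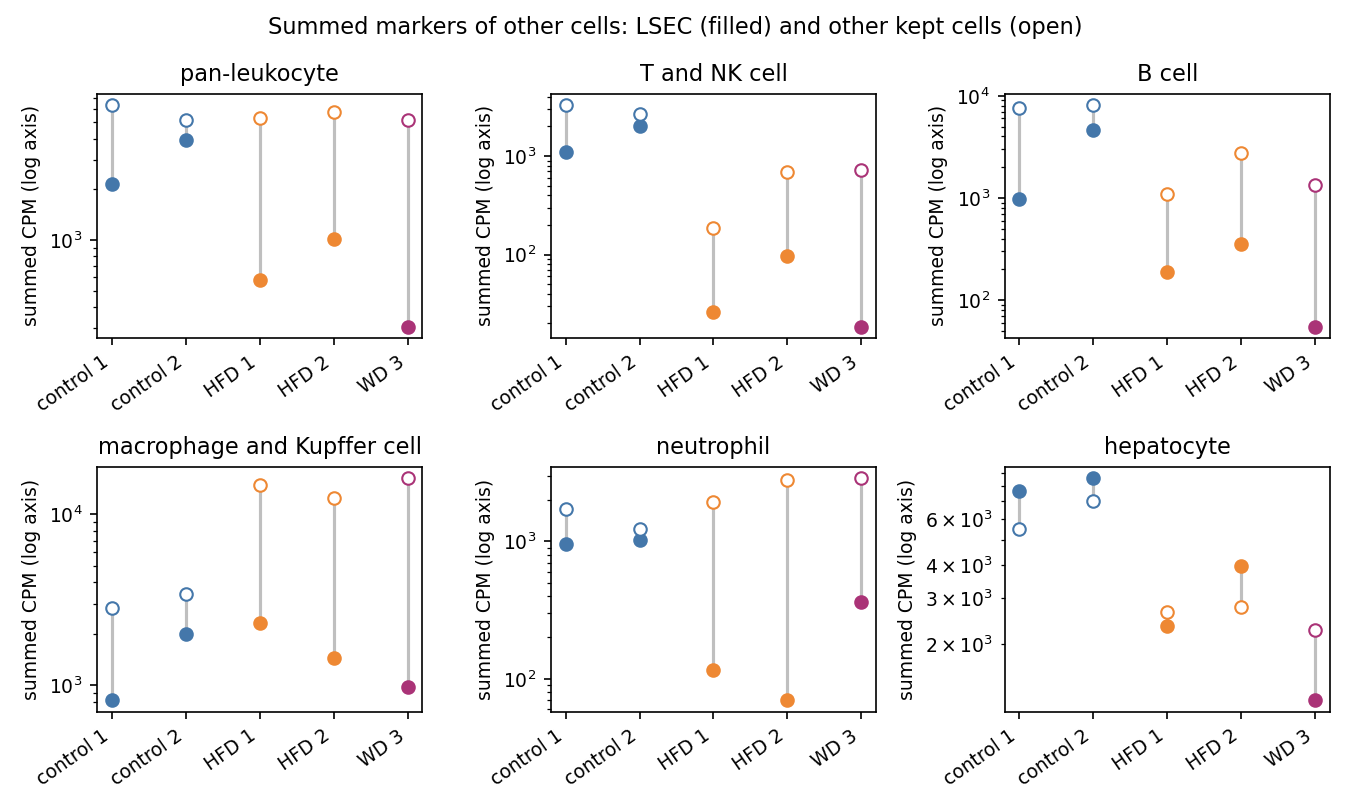
Summed CPM (log axis) of the markers of 6 other kinds of cells in LSEC (filled) and in the other kept cells (open) of the 5 mice. In control replicate 2 the 5 blood cell sums of LSEC came closest to those of the other cells, and the lymphocyte sums of LSEC were lower in each NASH mouse than in both controls.

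Genes followed in capillarization rose in part. Of 16 listed genes 13 were tested, 7 rose and none fell, with a median log2 fold change of 1.32. Of all genes tested 2.58% rose and 5.92% fell, the background for this count and for the lists below. The median was 1.07 without control replicate 2 and 0.99 without the LSEC with a Ptprc UMI. Genes shared by all endothelium were higher as well, with all 17 tested above 0 and a median of 0.88. Esm1 (endocan), a secreted proteoglycan of sprouting tip cells, was at 8.22 and 5.55 CPM in control and 544, 320.5 and 373 CPM in NASH LSEC, and at 0.0284 and 0.195 CPM and 22.5, 1.67 and 20.9 CPM in other cells. The groups were far apart, with a log2 fold change of 5.77 ± 0.57, adjusted p = 1.00e-07. Cd34, a sialomucin of continuous capillaries that sinusoids normally lack, was at 6.57 and 0 CPM and 115, 111 and 112 CPM (log2 fold change 4.53 ± 0.60, adjusted p = 6.14e-06). The 3 NASH mice had nearly the same level of Cd34, and other kept cells were at 8.46 and 11.1 CPM and 22.5, 20.2 and 13.2 CPM. Plvap, the diaphragm protein of fenestrae and caveolae, was at 168 and 27.8 CPM and 288, 390.2 and 460.02 CPM (1.86 ± 0.47, adjusted p = 0.00948), with control replicate 2 the lowest. Ly6a (Sca-1) was at 228 and 367 CPM and 489.9, 934 and 722 CPM (1.32 ± 0.41, adjusted p = 0.0433), and the matrix protein gene Sparc at 858 and 249.95 CPM and 1697, 1533 and 1977 CPM (1.69 ± 0.48, adjusted p = 0.0253). Neither overlapped between the groups. Of all genes tested 18.7% lay higher in each NASH mouse than in both controls and 20.4% lower, as did 260 of the 267 rises and 562 of the 612 falls, so a lack of overlap adds little to a call.

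The same list holds both chains of the main collagen IV of basement membranes. Col4a1 was at 413 and 217 CPM in control and 1034, 718 and 983 CPM in NASH LSEC (log2 fold change 1.58 ± 0.42, adjusted p = 0.0166), and Col4a2 at 274 and 122 CPM and 958, 669 and 765 CPM (1.98 ± 0.43, adjusted p = 0.00304). Each NASH mouse was above both controls for both chains. Other kept cells held 11.4 and 48.2 CPM and 98.8, 12.3 and 52.9 CPM of Col4a2. The chains are made from neighbouring genes that face away from each other on chromosome 8, and their start windows (300 bases around the start, RefSeq, GRCm38.p6) overlap. The windows are shown because the pair moved together, with the 78 shared bases (chr8:11312777-11312854) in capitals, each read 5′ to 3′ on its own strand. The Col4a1 window is chr8:11312777-11313076, minus strand, and the Col4a2 window is chr8:11312555-11312854, plus strand.
Col4a1: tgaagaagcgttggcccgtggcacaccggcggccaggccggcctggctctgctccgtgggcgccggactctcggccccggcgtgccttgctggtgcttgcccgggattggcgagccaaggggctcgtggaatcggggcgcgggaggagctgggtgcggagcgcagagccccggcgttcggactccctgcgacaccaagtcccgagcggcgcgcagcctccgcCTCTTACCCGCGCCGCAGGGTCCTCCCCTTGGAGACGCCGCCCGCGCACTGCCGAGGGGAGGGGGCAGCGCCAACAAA
Col4a2: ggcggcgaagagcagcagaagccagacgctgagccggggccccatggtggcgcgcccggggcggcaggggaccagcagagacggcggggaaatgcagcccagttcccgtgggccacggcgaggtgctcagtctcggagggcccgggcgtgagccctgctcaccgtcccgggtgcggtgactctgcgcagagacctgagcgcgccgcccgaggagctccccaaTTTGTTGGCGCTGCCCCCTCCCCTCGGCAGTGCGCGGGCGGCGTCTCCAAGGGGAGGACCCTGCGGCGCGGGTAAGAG

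Other members were not called. The water channel gene Aqp1 was at 2045 and 767 CPM and 2319, 2362 and 2802 CPM (0.88 ± 0.47, adjusted p = 0.336), Hspg2 (perlecan) at 662 and 249.95 CPM and 737, 906 and 906 CPM (0.91 ± 0.43, adjusted p = 0.249), and Emcn at 202 and 49.99 CPM and 174, 244 and 181 CPM (0.50 ± 0.41, adjusted p = 0.618). The same 7 genes rose, of 15 tested, when control replicate 2 was left out. Without the LSEC that held a Ptprc UMI 2 of 13 rose, Esm1 (log2 fold change 5.26, adjusted p = 1.30e-06) and Cd34 (4.13, adjusted p = 8.30e-05), and Col4a2 stood at 1.66 (adjusted p = 0.156).

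Abcc9 was among the largest rises. It encodes SUR2, the regulatory subunit of a potassium channel that is closed by ATP and is best known from muscle and pericytes. It was at 13.1 and 5.55 CPM in control and 423, 237 and 326 CPM in NASH LSEC (log2 fold change 4.94 ± 0.53, adjusted p = 3.80e-07), and at 4.97 and 5.85 CPM and 35.04, 4.64 and 16.1 CPM in other kept cells. Kcnj8, the pore subunit of the same channel, was chosen after its values were seen, as the gene that lies next to Abcc9 with 16247 bases between them (Kcnj8 chr6:142564837-142571614 and Abcc9 chr6:142587862-142702315, GRCm38, both on the minus strand). It was at 1.64 and 27.8 CPM in control and 85.9, 55.7 and 90.2 CPM in NASH LSEC (3.29 ± 0.67, adjusted p = 0.001397), with 3.69 and 6.44 CPM and 5.76, 0.931 and 5.13 CPM in other cells, so that both subunits were higher in each NASH mouse than in either control. Both held without the LSEC with a Ptprc UMI, at 4.97 (adjusted p = 2.06e-06) for Abcc9 and 3.998 (adjusted p = 0.00294) for Kcnj8. Of the 9 stellate cell markers, Pdgfrb was at 0 in both controls and in HFD+F+CCl4 replicate 2. All 9, with Pdgfrb, were detected in HFD+F+CCl4 replicate 1 and in the WD+F+CCl4 mouse. Their sum was 224 and 122 CPM in control and 404, 139 and 111 CPM in NASH LSEC. The part of stellate cells or pericytes in these values was not tested.

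The other large rises included several genes that were close to 0 in control LSEC. Galnt15, which starts O-linked sugar chains on proteins, was at 3.29 and 0 CPM and 106, 97.5 and 99.1 CPM, a ratio of pooled UMIs of 40.1 (95% counting interval 11.04 to 332) that rests on 2 control UMIs (adjusted p = 3.49e-06). Depp1 was at 1.64 and 5.55 CPM and 73.2, 97.5 and 55.2 CPM, with a ratio of 24.8 (95% counting interval 6.82 to 206) and an adjusted p = 5.07e-05. The nuclear factor gene Tox2 was at 0 and 5.55 CPM and 58.2, 118 and 34.5 CPM with a ratio of 35.8 (95% counting interval 6.36 to 1418), and the tubulin gene Tubb3 at 0 and 5.55 CPM and 36.6, 55.7 and 58.3 CPM with a ratio of 39.6 (95% counting interval 7.05 to 1569). None of the 4 overlapped between groups, and the other NASH cells held at most 7.06 CPM of Galnt15, 10.2 CPM of Depp1, 5.84 CPM of Tox2 and 4.13 CPM of Tubb3. Sprr2b, a small proline-rich protein gene, was at 0 UMIs in both controls and at 4.69, 286 and 35.6 CPM in NASH, at least 7.99-fold higher (adjusted p = 0.0154). Its CPM was uneven between the NASH mice and by far the highest in 1 of them, HFD+F+CCl4 replicate 2.

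**Figure D3:**
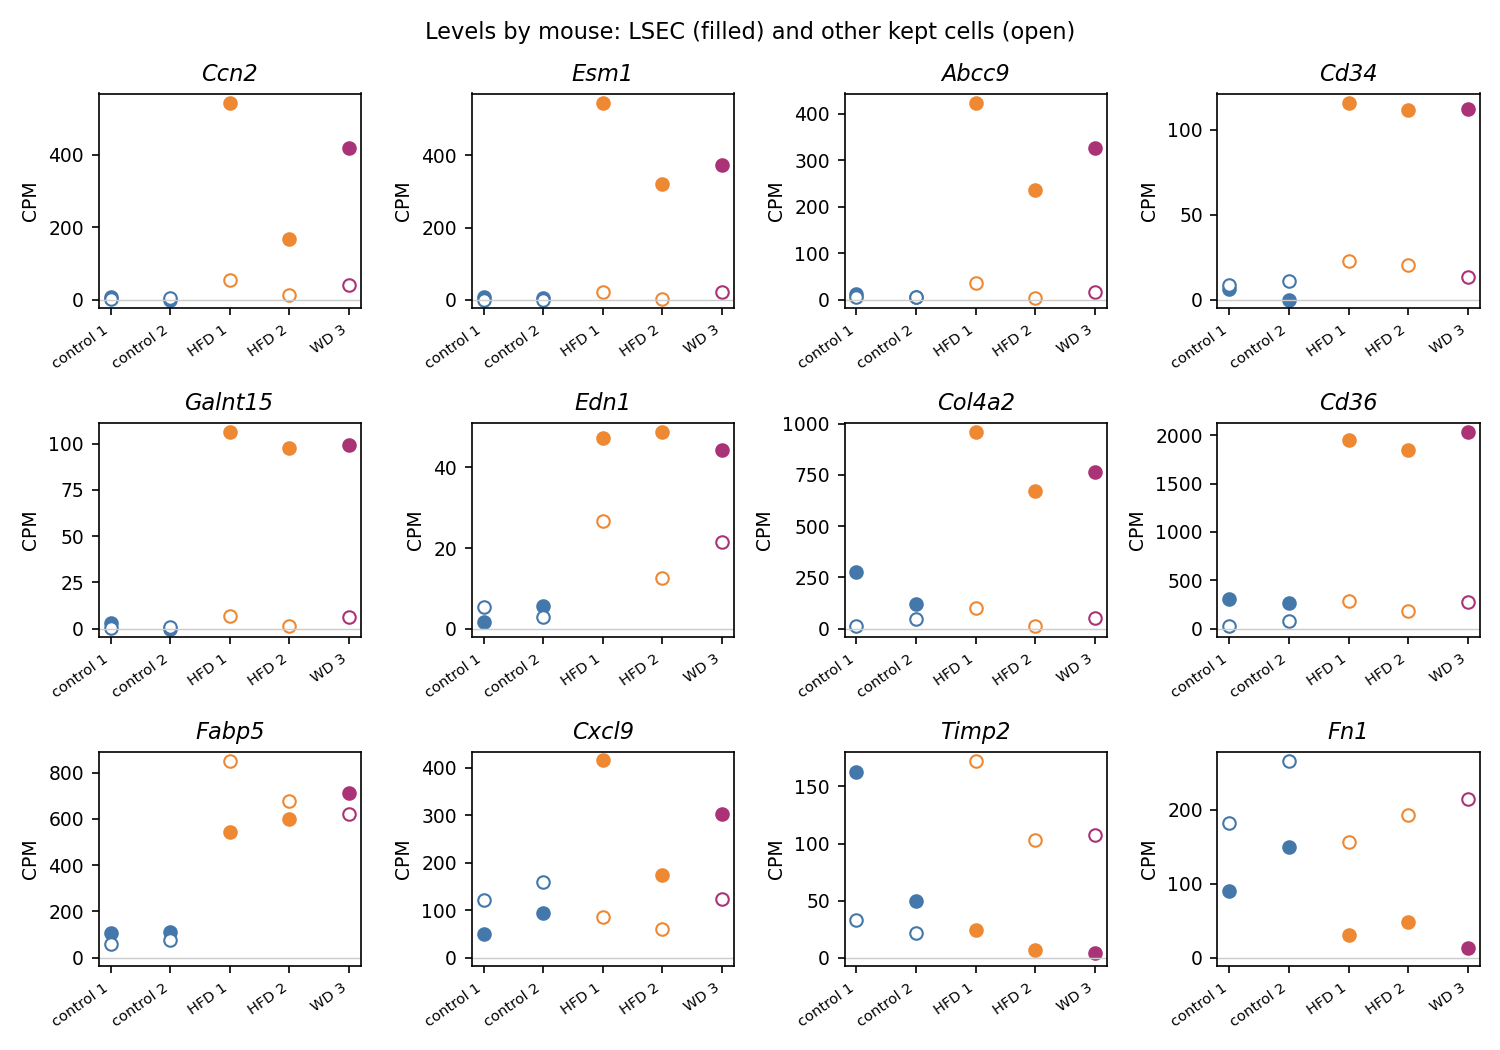
CPM of 12 named genes in LSEC (filled) and in the other kept cells (open) of each mouse, on linear axes. For the 10 genes from Ccn2 to Cxcl9 the 3 NASH mice lie above both controls in LSEC, and for Timp2 and Fn1 they lie below.

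Angiocrine ligands, the signals that endothelial cells send to their neighbours, rose in part. Of 18 listed 15 were tested and 7 rose, with a median log2 fold change of 0.92. Ccn2 (connective tissue growth factor), a matricellular protein known from fibrosis, was at 8.22 and 0 CPM in control and 542, 167 and 419.8 CPM in NASH LSEC (log2 fold change 6.04 ± 0.68, adjusted p = 6.63e-07). Other kept cells were at 2.33 and 5.27 CPM and 55.01, 13.3 and 39.3 CPM. Edn1, the precursor of the vasoconstrictor endothelin-1, was at 1.64 and 5.55 CPM and 47.4, 48.8 and 44.2 CPM, with a pooled ratio of 17.9 (95% counting interval 4.92 to 149) on 2 control UMIs (adjusted p = 4.75e-04). The level of HFD+F+CCl4 replicate 2 came from 7 UMIs, in 2% of its 50 LSEC, that is 1 cell. Vascular endothelial cells (2 or more Vwf UMIs) of the 3 NASH mice held 788, 1206 and 1664 CPM of Edn1. Its receptor gene Ednrb was at 90.4 and 5.55 CPM and 95.7, 229.9 and 421 CPM (2.09 ± 0.51, adjusted p = 0.00778), spread widely within both groups.

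Angpt2, the antagonist of the Tie2 receptor, was at 13.1 and 0 CPM and 101, 48.8 and 60.6 CPM (2.93 ± 0.60, adjusted p = 0.00167), and the activin chain gene Inhbb at 49.3 and 22.2 CPM and 149, 195 and 123 CPM (1.87 ± 0.40, adjusted p = 0.00245). Pdgfb, which acts on stellate cells and pericytes, was at 9.86 and 16.7 CPM and 109, 41.8 and 42.5 CPM (2.40 ± 0.57, adjusted p = 0.00658). The other kept cells held 13.9 and 23.2 CPM and 142, 74.8 and 93.3 CPM of Pdgfb. Tgfb1, the main fibrogenic cytokine of the liver, was at 182 and 117 CPM and 624, 502 and 456 CPM (1.76 ± 0.40, adjusted p = 0.00392), with 119 and 92.9 CPM and 398, 304 and 312 CPM in other cells. Hgf, the hepatocyte growth factor, was at 105 and 22.2 CPM and 178, 105 and 235 CPM (1.39 ± 0.43, adjusted p = 0.0435), and its groups overlapped. For the difference of the NASH effect between LSEC and other kept cells, the adjusted p was 0.916 for Pdgfb and 0.977 for Tgfb1.

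The Wnt ligands of central LSEC depended on control replicate 2 and on the cells taken. Wnt2 was at 335 and 88.9 CPM in control and 59.6, 139 and 108 CPM in NASH LSEC (-1.21 ± 0.42, adjusted p = 0.0835), Rspo3, which strengthens Wnt signals, at 176 and 22.2 CPM and 63.8, 97.5 and 45.7 CPM (-0.92 ± 0.45, adjusted p = 0.284), and Wnt9b at 57.5 and 5.55 CPM and 10.3, 20.9 and 21.8 CPM (-1.21 ± 0.58, adjusted p = 0.268). For each, control replicate 1 was the highest mouse and control replicate 2 lay below at least 2 of the 3 NASH mice, so that the groups overlapped. Against control replicate 1 alone, with the spread taken from the 2 HFD+F+CCl4 mice, Wnt2 fell by 1.86 (adjusted p = 8.76e-09), Rspo3 fell by 1.60 (adjusted p = 1.99e-05) and Wnt9b fell by 1.83 (adjusted p = 0.00157) on the log2 scale. Without the LSEC with a Ptprc UMI, Wnt2 fell by 1.67 (adjusted p = 0.0478) and Rspo3 fell by 1.59 (adjusted p = 0.0464), with an adjusted p of 0.0727 for Wnt9b. With both controls and only LSEC of 4 or more UMIs of Clec4g, Stab2 and Lyve1, all 3 fell by the test. Over the whole angiocrine list 7 rose and 3 fell without control replicate 2, and 3 rose (Ccn2, Pdgfb and Edn1) and 2 fell without the LSEC with a Ptprc UMI.

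Genes of lipid handling rose in part. All 17 were tested, 8 rose and 1 fell, and the median log2 fold change was 1.38. The fatty acid translocase gene Cd36 was at 307 and 267 CPM in control and 1948, 1846 and 2032 CPM in NASH LSEC (log2 fold change 2.81 ± 0.45, adjusted p = 8.59e-05), with 30.5 and 83.9 CPM and 289.9, 187 and 274 CPM in other cells. All 3 NASH mice were at nearly the same level. The fatty acid binding protein genes were also higher, Fabp4 at 671 and 189 CPM and 1398, 1721 and 2534 CPM (2.19 ± 0.50, adjusted p = 0.00394) and Fabp5 at 107 and 111 CPM and 543, 599 and 712 CPM (2.59 ± 0.41, adjusted p = 7.22e-05). Fabp5 was as high in the other NASH cells, at 852, 679 and 621 CPM.

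Gpihbp1, which carries lipoprotein lipase to the vessel surface, was at 983 and 339 CPM and 2049.7, 1554 and 2195 CPM (1.60 ± 0.48, adjusted p = 0.0326), and the lipase gene Lpl itself at 3.29 and 16.7 CPM and 73.2, 97.5 and 40.2 CPM (3.09 ± 0.64, adjusted p = 0.00171). Lpl was far higher in the other NASH cells, at 562, 779 and 918 CPM, while Gpihbp1 was lower there, at 113, 12.5 and 123 CPM. Abca1, a cholesterol exporter, was at 60.8 and 49.99 CPM and 139.8, 209 and 244 CPM (1.86 ± 0.38, adjusted p = 0.00155), and the droplet coat gene Plin2 at 80.5 and 106 CPM and 201, 209 and 213 CPM (1.25 ± 0.36, adjusted p = 0.0272). In other kept cells Abca1 was at 33.7 and 40.4 CPM and 182, 151 and 242 CPM, close to LSEC in NASH, and Plin2 at 36.4 and 84.7 CPM and 478, 623 and 647 CPM, higher than in LSEC in NASH. The fatty acid sensor Pparg rose on 2 control UMIs, with a pooled ratio of 8.08 (95% counting interval 2.19 to 67.5). Without control replicate 2, 9 rose and 1 fell, and without the LSEC with a Ptprc UMI 3 rose (Fabp5, Lpl and Cd36), with Cd36 at 2.60 (adjusted p = 0.0158) and Fabp4 at 1.80 (adjusted p = 0.196).

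**Figure D4:**
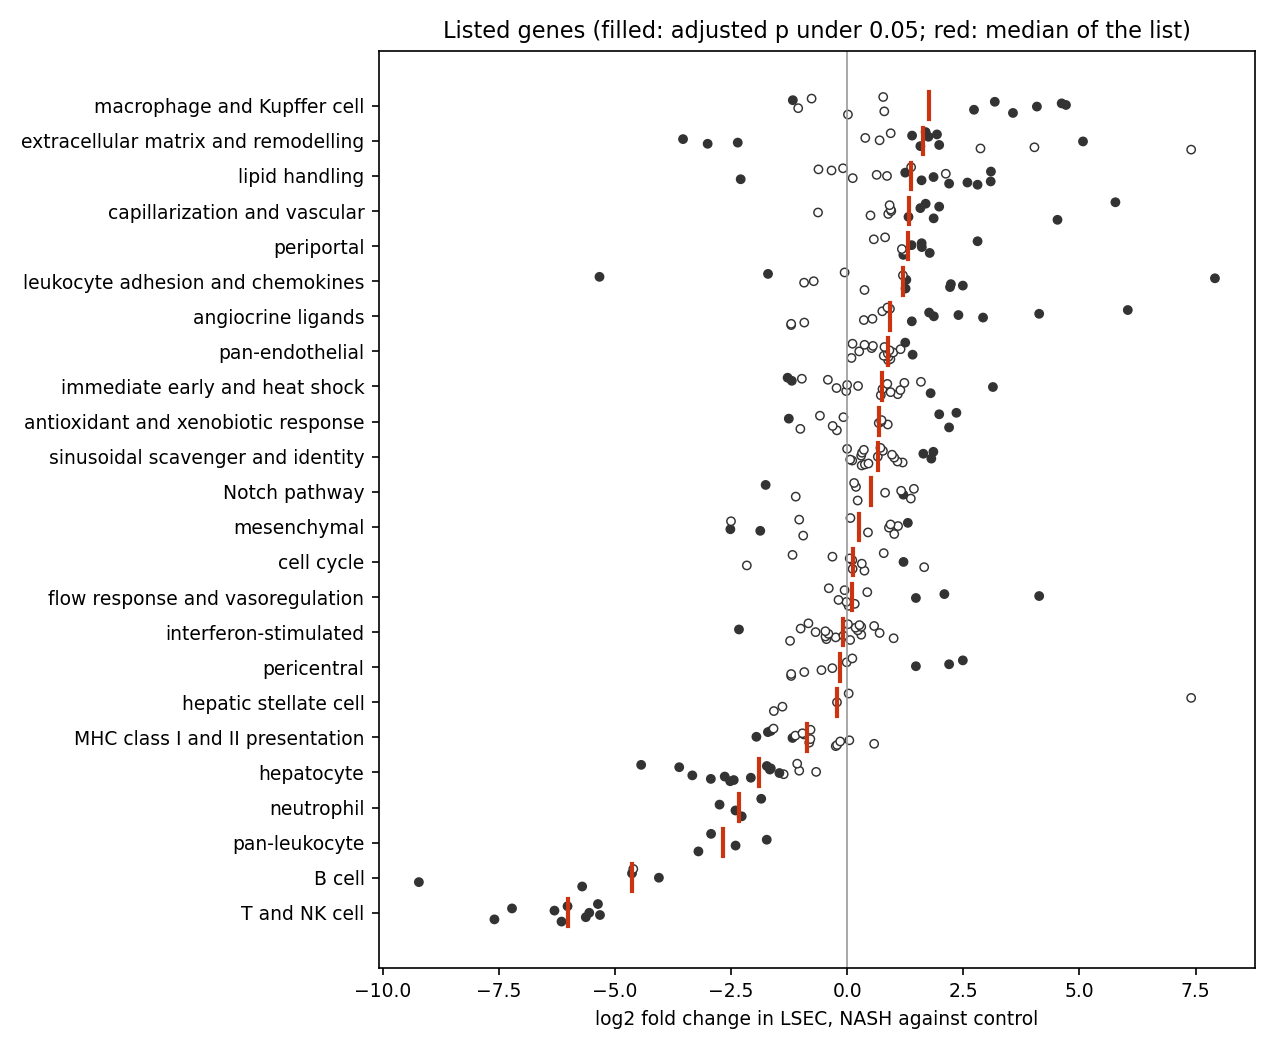
Log2 fold change in LSEC, NASH against control, of each tested gene of the lists (filled, adjusted p under 0.05; red line, median of the list; grey line, 0). The macrophage, matrix, lipid and capillarization lists have the highest medians and the hepatocyte, neutrophil, leukocyte, B cell and T and NK cell lists the lowest.

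Matrix genes moved both ways. Of 21 listed 16 were tested, 7 rose (Col4a1, Col4a2 and Sparc among them) and 3 fell, with a median of 1.63. Fbn1 (fibrillin-1) was at 1.64 and 0 CPM in control and 41.8, 69.7 and 39.7 CPM in NASH LSEC, a pooled ratio of 32.5 (95% counting interval 5.77 to 1288) that rests on 1 control UMI (adjusted p = 2.52e-04). The proteoglycan gene Bgn was at 158 and 88.9 CPM and 587, 425 and 445 CPM (1.93 ± 0.41, adjusted p = 0.00213), and Mmp14, a membrane protease that cuts collagen, at 108 and 61.1 CPM and 254, 320.5 and 307 CPM (1.75 ± 0.38, adjusted p = 0.00304). All 3 were higher in each NASH mouse than in either control. Timp2, an inhibitor of matrix proteases, fell, from 163 and 49.99 CPM to 24.4, 6.97 and 4.31 CPM (-3.53 ± 0.49, adjusted p = 1.41e-05), while the other kept cells went from 32.9 and 22.05 CPM to 172, 103 and 108 CPM. The fibronectin gene Fn1 fell from 90.4 and 149.97 CPM to 30.03, 48.8 and 13.5 CPM (-2.36 ± 0.41, adjusted p = 2.37e-04), with 182 and 266 CPM and 156, 192 and 215 CPM in other cells. Col18a1, the source of endostatin, fell from 37.8 and 77.8 CPM to 8.92, 6.97 and 4.597 CPM (-3.004 ± 0.59, adjusted p = 9.13e-04). Leaving out control replicate 2 gave 10 rises and the same 3 falls. In LSEC without a Ptprc UMI 2 of 16 rose, Fbn1 and Col1a2, and Bgn (1.60, adjusted p = 0.153), Mmp14 (1.37, adjusted p = 0.234), Col4a1, Col4a2 and Sparc were not called. Timp2 and Fn1 fell also without control replicate 2 and without the LSEC with a Ptprc UMI (adjusted p = 1.30e-06 and 0.00636).

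Genes by which leukocytes attach to or are called by endothelium rose in part. Of 18 listed 13 were tested, 6 rose and 2 fell, with a median of 1.20. Cxcl9, a chemokine for T cells, was at 50.95 and 94.4 CPM in control and 416, 174 and 302 CPM in NASH LSEC (2.23 ± 0.45, adjusted p = 0.00122), while other kept cells were at 122 and 159 CPM and 85.6, 60.2 and 123 CPM. The adhesion receptor genes Vcam1, at 37.8 and 16.7 CPM and 199, 76.6 and 128 CPM (2.21 ± 0.46, adjusted p = 0.00179), and Selp (P-selectin), at 11.5 and 5.55 CPM and 45.5, 48.8 and 63.5 CPM (2.49 ± 0.56, adjusted p = 0.00392), did not overlap between the groups. Other kept cells held 5.85 and 5.85 CPM and 147, 62.3 and 195 CPM of Vcam1. Ccl2, which draws monocytes, was at 0 UMIs in both controls and at 30.97, 6.97 and 21.3 CPM in NASH, at least 6.44-fold higher (adjusted p = 0.00524), below the 22.4, 31.5 and 64.95 CPM of the other NASH cells except in HFD+F+CCl4 replicate 1. Icam2 (1.26 ± 0.38, adjusted p = 0.0363) and Cxcl16 (1.27 ± 0.39, adjusted p = 0.0411) also rose, and Icam1 was at 95.3 and 139 CPM and 190.04, 69.7 and 137 CPM (0.37 ± 0.39, adjusted p = 0.726). Both falls, Ccl5 and Cd44, were genes that were higher in the other control cells than in control LSEC. Ccl5 went from 592 and 1589 CPM to 16.4, 62.7 and 24.4 CPM in LSEC and from 1664 and 1665 CPM to 227, 799 and 1133 CPM in other cells. When control replicate 2 was left out, 4 rose and 3 fell. In LSEC without a Ptprc UMI Cxcl9 (2.49, adjusted p = 0.00608) and Vcam1 (2.32, adjusted p = 0.00972) rose and Ccl5 fell. By DESeq2 Cxcl9 and Vcam1 rose and Ccl5 fell, and Selp, Ccl2, Icam2, Cxcl16 and Cd44 were not called.

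Of the genes of LSEC identity the 4 most abundant did not pass the test. Of 20 genes of scavenging and sinusoidal identity 19 were tested, 3 rose, Ctsl and Clec1b among them, and none fell, with a median of 0.66 against 0.00 for all genes tested and 18 of 19 above 0. The rises are 3 of 19, where 2.58% of all genes tested rose. The lysosomal protease gene Ctsl was at 565 and 528 CPM in control and 1567, 1602 and 2340.3 CPM in NASH LSEC (1.86 ± 0.42, adjusted p = 0.004402), and Clec1b, a lectin receptor, at 110.1 and 27.8 CPM and 227, 216 and 324 CPM (1.81 ± 0.42, adjusted p = 0.00502). Both groups were apart, and the controls of Clec1b were themselves spread from 27.8 to 110 CPM. Dnase1l3, which degrades DNA in blood, was at 3090.1 and 1328 CPM and 2546, 2292 and 2259 CPM (0.11 ± 0.46, adjusted p = 0.946), Ehd3 at 2806 and 1072 CPM and 2206, 2132 and 1837 CPM (0.07 ± 0.46, adjusted p = 0.9695), and the scavenger receptor gene Stab1 at 2022 and 949.8 CPM and 1831, 1700.0 and 1858 CPM (0.31 ± 0.44, adjusted p = 0.814). In each of these control replicate 2 was the lowest mouse and control replicate 1 the highest. Fcgr2b, the receptor for immune complexes, was at 2032 and 778 CPM and 1711, 1602 and 2183 CPM (0.46 ± 0.45, adjusted p = 0.705).

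Of 18 genes shared by all endothelium 17 were tested, Erg and S1pr1 rose and none fell, with a median of 0.88. The transcription factor gene Erg was at 92.05 and 44.4 CPM and 198, 167 and 197 CPM (1.41 ± 0.38, adjusted p = 0.0171), and S1pr1, the receptor that tightens endothelial contacts, at 123 and 49.99 CPM and 259, 167 and 214 CPM (1.25 ± 0.40, adjusted p = 0.0487). Cdh5 (VE-cadherin) was at 725 and 222 CPM and 838, 1010.3 and 894 CPM (0.93 ± 0.44, adjusted p = 0.265), with control replicate 2 the lowest. The medians of the identity and endothelial lists were 0.29 and 0.32 without control replicate 2, with 3 and 1 rises and no fall. Without the LSEC with a Ptprc UMI they were 0.25 and 0.47, with no gene called by edgeR in either list. DESeq2 called none of the 17 endothelial genes and 2 of the identity genes, Ctsl and Clec1b.

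Genes of the portal end of the lobule rose in part. All 10 periportal genes were tested and 6 rose, with a median of 1.31, Cd36 among them, and DESeq2 called 4. The scavenger receptor gene Msr1 was at 141 and 66.7 CPM and 309, 369 and 321 CPM (1.60 ± 0.39, adjusted p = 0.00778), the guidance gene Ntn4 at 138 and 55.5 CPM and 274, 411 and 290.5 CPM (1.61 ± 0.40, adjusted p = 0.01004), and the ephrin gene Efnb2 at 57.5 and 5.55 CPM and 152, 76.6 and 143 CPM (1.78 ± 0.48, adjusted p = 0.0161). The groups did not overlap in these genes. Dll4, a Notch ligand of arterial and portal endothelium, was at 77.3 and 49.99 CPM and 196, 111 and 138 CPM (1.21 ± 0.38, adjusted p = 0.0495). Of 10 pericentral genes Selp, Fabp4 and Thbd rose and none fell, with a median of -0.17. Cdh13 was at 164 and 66.7 CPM and 69.4, 83.6 and 91.7 CPM (-0.55 ± 0.37, adjusted p = 0.5004), and Kit, the receptor for stem cell factor, at 496 and 305 CPM and 264, 362 and 329 CPM (-0.32 ± 0.37, adjusted p = 0.761). Against control replicate 1 alone, 2 pericentral genes rose (Fabp4 and Selp) and 4 fell (Wnt2, Rspo3, Wnt9b and Cdh13), and 5 periportal genes rose. Without the LSEC with a Ptprc UMI 1 of 9 periportal genes rose (Cd36) and 2 pericentral genes fell (Rspo3 and Wnt2). All 9 periportal genes were then above 0 on the log2 scale, with a median of 1.09.

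In the Notch pathway, which keeps arterial identity, 10 of 13 genes were tested. Dll4 rose and Lfng, which tunes Notch receptors with a sugar, fell from 138 and 106 CPM to 32.8, 13.9 and 43.7 CPM (-1.76 ± 0.38, adjusted p = 0.00295), with a list median of 0.52. Of 10 genes of flow response and vessel tone, Edn1, Ednrb and Thbd rose and none fell, with a median of 0.10. The flow-induced factor gene Klf2 was at 493 and 244 CPM and 515, 355 and 316 CPM (0.03 ± 0.39, adjusted p = 0.986), and Nos3, which makes nitric oxide in endothelium, at 156 and 22.2 CPM and 67.1, 132 and 88.2 CPM (-0.19 ± 0.45, adjusted p = 0.905). The groups overlapped for both genes. With control replicate 2 left out, Nrarp and Dll4 rose and Lfng and Dll1 fell of the Notch list, and Edn1 and Ednrb rose and Ptgs1 fell of the flow list. In LSEC without a Ptprc UMI Lfng fell (-1.91, adjusted p = 0.00957) and Edn1 rose (3.35, adjusted p = 0.0223), and Dll4 (adjusted p = 0.7597), Ednrb (adjusted p = 0.265) and Thbd (adjusted p = 0.675) were not called. DESeq2 called no gene of the Notch list and Edn1 alone of the flow list.

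Antigen presentation genes were lower in part. All 16 were tested, none rose and 4 fell, with a median of -0.87. Nlrc5, the activator of MHC class I genes, went from 59.2 and 94.4 CPM to 20.2, 20.9 and 16.1 CPM (-1.95 ± 0.45, adjusted p = 0.00436), and Psmb9, a subunit of the immunoproteasome, from 138 and 189 CPM to 71.8, 83.6 and 61.5 CPM (-1.18 ± 0.34, adjusted p = 0.0264). Other kept cells held Nlrc5 at 82.98 and 105 CPM and 21.3, 27.8 and 30.2 CPM, lower in NASH as well. H2-DMa and H2-DMb1, which load peptides on MHC class II, also fell, with H2-DMa at 54.2 and 161 CPM and 40.4, 76.6 and 16.4 CPM (-1.71 ± 0.45, adjusted p = 0.0158), groups that overlapped. B2m, the light chain of MHC class I, was at 2663 and 3699 CPM and 4442, 4236 and 4867 CPM (0.58 ± 0.46, adjusted p = 0.602), and Cd74, the class II invariant chain, at 1042 and 2049.6 CPM and 834, 2181 and 503 CPM (-0.79 ± 0.44, adjusted p = 0.3801). Class II genes are also abundant in B cells and macrophages. Nlrc5 and Psmb9 also fell without control replicate 2, and without the LSEC with a Ptprc UMI H2-Aa and H2-Ab1 fell instead (adjusted p = 0.0238 and 0.0494). DESeq2 called none of the 16.

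Of 21 interferon-stimulated genes, 1 fell and none rose, while 5.92% of all genes tested fell. The gene called was Igtp, a GTPase of cell-autonomous defence. It fell from 98.6 and 94.4 CPM to 21.1, 27.9 and 15.2 CPM (-2.33 ± 0.41, adjusted p = 2.92e-04) and the list median was -0.08, while the other kept cells went from 145 and 125 CPM to 27.5, 27.4 and 32.4 CPM. Igtp, Gbp4 and Ifit1 fell without control replicate 2, and without the LSEC with a Ptprc UMI none of the 21 was called by edgeR, with Igtp at -1.43 (adjusted p = 0.371). Of 18 immediate early and heat shock genes, which dissociation also induces, Ier3 and Jun rose and Hsp90aa1 and Hspe1 fell, with a median of 0.74. Jun was at 100.3 and 33.3 CPM and 449, 272 and 171 CPM in LSEC (1.80 ± 0.43, adjusted p = 0.00623) and at 66.8 and 52.9 CPM and 1119, 197 and 469 CPM in other cells. HFD+F+CCl4 replicate 1 was the highest mouse for Jun in both. Junb, Ier3 and Jun rose and Hsp90aa1 fell without control replicate 2, and without the LSEC with a Ptprc UMI Ier3 alone was called (adjusted p = 0.0497), with Jun at 1.46 (adjusted p = 0.181).

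A few stress and metal response genes rose in LSEC. Of 15 antioxidant genes 13 were tested, Hmox1, Mt1 and Mt2 rose and Cat fell, with a median of 0.68. Hmox1, which breaks down heme, was at 32.9 and 5.55 CPM and 148, 153 and 79.9 CPM (2.19 ± 0.46, adjusted p = 0.00188), and at 15.4 and 14.8 CPM and 723, 271 and 345 CPM in other cells. Mt1 (metallothionein 1) was at 204 and 61.1 CPM and 622, 599 and 494 CPM (1.98 ± 0.44, adjusted p = 0.003496), and catalase, Cat, fell from 204 and 411 CPM to 122, 174 and 103 CPM (-1.26 ± 0.36, adjusted p = 0.0264). The groups did not overlap for these 3 genes. Mt2, Mt1, Hmox1 and Sod1 rose and Gpx4 fell without control replicate 2, and Cat was not called (adjusted p = 0.103). Among LSEC without a Ptprc UMI Hmox1 alone was called (2.03, adjusted p = 0.0375), with Mt1 at 1.57 (adjusted p = 0.178). Of 12 mesenchymal genes Twist1 rose and S100a4 and S100a6 fell, with a median of 0.26, and S100a6 was at 294 and 622 CPM and 74.6, 125 and 62.1 CPM in LSEC and at 905 and 897 CPM and 756, 1161 and 1085 CPM in other cells. Of 15 cell cycle genes 11 were tested and the tubulin gene Tubb5 rose (1.21 ± 0.39, adjusted p = 0.0499), with a median of 0.12. This 1 call among 11 genes is close to the 8.5% called among all genes tested. Twist1, Vim and Tubb5 rose and S100a6, S100a4 and Tgfbr1 fell without control replicate 2. Among LSEC without a Ptprc UMI S100a6 and S100a4 fell, and Twist1 and Tubb5 (adjusted p = 0.318) were not called. In the remaining lists DESeq2 called 6 rises for capillarization, 5 for angiocrine ligands, 1 for pericentral genes, 7 rises and 1 fall for lipid handling, 6 and 3 for matrix, the fall of Igtp, the rises of Jun and Ier3, the falls of S100a4 and S100a6, the rises of Mt1, Mt2 and Hmox1, and that of Tubb5.

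Both models were also compared with the same control mice, so these comparisons are not independent of each other. A gene called in both was therefore not taken as replicated, and the agreement between them was not tested. In HFD+F+CCl4 LSEC 522 genes (5.05%) differed from control, 175 higher and 347 lower, and in the WD+F+CCl4 mouse 594 genes (5.74%), 169 higher and 425 lower. The count for HFD+F+CCl4 was 111 without HFD+F+CCl4 replicate 1 and 1240 (611 higher and 629 lower) without control replicate 1, and that for WD+F+CCl4 was 1365 (634 higher and 731 lower) without control replicate 1. Of the capillarization list Esm1, Cd34 and Col4a2 rose in HFD+F+CCl4 and these with Plvap and Col4a1 in WD+F+CCl4. Of the lipid list Cd36, Fabp5, Lpl, Abca1 and Fabp4 rose in each model. Ccn2, Edn1, Angpt2, Inhbb and Tgfb1 rose in each model, Pdgfb in HFD+F+CCl4 and Hgf in WD+F+CCl4. Between the models no gene of the capillarization, lipid or angiocrine list was called.

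Between the 2 HFD+F+CCl4 mice and the single WD+F+CCl4 mouse 7 genes (0.0677%) differed in LSEC, S100a8 higher and Col1a1, Col3a1, Col1a2, Acta2, Rgs1 and Serpina1e lower in WD+F+CCl4. A difference between the models and one of that mouse cannot be told apart. Without HFD+F+CCl4 replicate 1 only 3 of the 7 genes were tested, and none of these 3 was called. The collagen genes and Acta2, all markers of fibrogenic mesenchymal cells, were high in the LSEC of 1 mouse, HFD+F+CCl4 replicate 1. Col1a1 was at 199, 0 and 2.01 CPM in the 3 NASH mice and 0 UMIs in both controls (WD+F+CCl4 minus HFD+F+CCl4 -5.86 ± 1.04, adjusted p = 0.0225), and the other kept cells of the same NASH mice were at 221, 18.9 and 9.01 CPM. Acta2 was at 59.6, 0 and 0 CPM in LSEC and 63.9, 3.61 and 4.29 CPM in other cells (adjusted p = 0.0212). All of its HFD+F+CCl4 UMIs came from replicate 1, so no bound on a fold between the models is given. S100a8, a neutrophil gene, was at 36.1, 6.97 and 174 CPM in LSEC and 725, 1190.3 and 1264 CPM in other cells (2.57 ± 0.50, adjusted p = 0.0377). The collagen level of HFD+F+CCl4 replicate 1 was as high among its other cells. DESeq2 called 1 gene, and no gene was called by edgeR without doublets, where 127 had an unadjusted p under 0.05.

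Whether LSEC changed unlike the other kept cells of the same mice was tested as the difference between their NASH effects. It passed for 604 of 14836 genes (4.07%), 101 with a higher and 503 with a lower effect in LSEC. The split was 382 higher and 551 lower without control replicate 1, and 221 higher and 492 lower without control replicate 2. Among the first, S1pr1 (difference 3.002 ± 0.36, adjusted p = 0.00196), Ets1 (2.96 ± 0.38, adjusted p = 0.00196), Fchsd2 (2.71 ± 0.37, adjusted p = 0.00196), Gimap8 (2.78 ± 0.39, adjusted p = 0.00196), Gimap5 (2.57 ± 0.38, adjusted p = 0.00238) and Tnik (2.88 ± 0.41, adjusted p = 0.00225) passed, and S1pr1, Ets1 and the Gimap GTPases are known from lymphocytes as well as endothelium. The transcription factor gene Ets1 was at 552 and 472 CPM in control and 961, 975 and 809.7 CPM in NASH LSEC, while other cells went from 523 and 411 CPM to 116, 74.9 and 111 CPM. The other cells of the controls held more lymphocyte RNA, as given above. Of the genes that rose in LSEC, Abcc9 (3.27 ± 0.61, adjusted p = 0.005899), Kcnj8 (3.38 ± 0.70, adjusted p = 0.0104), Cd34 (3.51 ± 0.66, adjusted p = 0.005899), Cxcl9 (2.67 ± 0.44, adjusted p = 0.00338) and Itgb3, an integrin chain (3.02 ± 0.41, adjusted p = 0.00196), rose more than in other cells. For Esm1 (-1.85 ± 1.60, adjusted p = 0.687) and Col4a2 (0.99 ± 0.74, adjusted p = 0.611) the test did not pass, and in each mouse the other cells were below LSEC in both genes.

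Genes with a lower effect in LSEC included some that were higher in NASH in the other kept cells. Timp2 passed with a difference of -5.52 ± 0.55, adjusted p = 2.90e-04. Pltp, the phospholipid transfer protein, was at 64.1 and 72.2 CPM and 79.8, 34.8 and 39.9 CPM in LSEC and at 49.3 and 91.7 CPM and 519, 269 and 408 CPM in other cells (-3.11 ± 0.43, adjusted p = 0.00196), and Slc15a3, a lysosomal peptide transporter, at 37.8 and 33.3 CPM and 45.99, 41.8 and 37.4 CPM against 18.7 and 25.2 CPM and 194, 177 and 206 CPM (-3.07 ± 0.43, adjusted p = 0.00212). LSEC levels of both overlapped between groups. Rnase6, Pld4, Cyth4 and Plac8, known from leukocytes, and Tspan13 fell in LSEC. Plac8 was at 403 and 699.9 CPM and 49.7, 62.7 and 70.4 CPM in LSEC and 736 and 879 CPM and 435, 694 and 1015 CPM in other cells (-2.95 ± 0.42, adjusted p = 0.00226). The mix of other cells differs between mice, and this comparison cannot tell a change within a cell type from a change in the mix.

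Position along the lobule was read within mice. LSEC with a UMI of Wnt2, Wnt9b or Rspo3 and none of Dll4, Efnb2 or Ltbp4 were called pericentral, and those with the reverse periportal. The 3 mice with 20 or more cells of each class held 81 and 117 cells (control replicate 1), 22 and 466 cells (HFD+F+CCl4 replicate 1) and 43 and 450 cells (WD+F+CCl4 replicate 3). Of the LSEC in either class, 40.9% and 31.7% were pericentral in the control mice and 4.51%, 34.5% and 8.72% in the NASH mice. The share of a class depends on the depth of the cells and on the levels of the genes that sort them. Of these genes Dll4 and Efnb2 rose in NASH, and Wnt2, Rspo3 and Wnt9b fell in some settings. A change of these genes and a change of position cannot be told apart, so the shares are a description with no test. The part of this mix in the results over all LSEC was not tested. Pericentral minus periportal LSEC, with the mouse as block, differed in 59 of 3977 genes (1.48%), 41 higher (1.03%) and 18 lower (0.453%), of which 6 were the genes of the split and 1 a gene of the rule that chose the cells. Of the other 52 genes, 38 were higher in pericentral and 14 in periportal LSEC, and 51 had the same direction in all 3 mice. The excess of pericentral genes depended on the setting, as 61 genes were higher and 50 lower in pericentral LSEC without control replicate 1, and 49 higher and 39 lower with no filter on low counts.

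Genes known from central LSEC followed the split. The homeobox gene Lhx6 was at 173, 264 and 174 CPM in pericentral and 4.54, 9.64 and 7.76 CPM in periportal LSEC, in the control mouse first, a log2 difference of 4.63 ± 0.42 (adjusted p = 1.55e-09). Cdh13 (T-cadherin) was at 387, 528 and 193 CPM and 49.98, 17.3 and 34.1 CPM, a difference of 3.38 ± 0.32 (adjusted p = 2.99e-09), and Thbd (thrombomodulin), which turns thrombin to an anticoagulant role, at 242, 633 and 469 CPM and 40.9, 57.8 and 106 CPM, 2.66 ± 0.26 (adjusted p = 3.97e-09). The classes were apart in each of the 3 mice. Kit and Lgals1 were also higher in pericentral LSEC, and Fabp4 was not called, at 0.58 ± 0.27 (adjusted p = 0.519).

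Of genes not listed for position, Ptgs1 (cyclooxygenase 1) was at 552, 457 and 379 CPM in pericentral and 149.9, 95.7 and 144 CPM in periportal LSEC, 1.76 ± 0.23 (adjusted p = 2.19e-06). Gja4 (connexin 37) differed by 1.56 ± 0.24 (adjusted p = 4.01e-05), the prostaglandin transporter gene Slco2a1 by 1.65 ± 0.25 (adjusted p = 4.01e-05), Jup (plakoglobin) by 2.10 ± 0.29 (adjusted p = 7.48e-06) and Slc26a10 by 1.89 ± 0.24 (adjusted p = 1.61e-06). Plvap was higher in pericentral LSEC, at 242, 492 and 700.4 CPM against 105, 252 and 409 CPM, 0.91 ± 0.22 (adjusted p = 0.0207). Of the flow list Thbd, Ptgs1, Klf2 and Cyp26b1 were higher in pericentral LSEC and none lower, with a median of 0.91 against -0.01 for all genes tested.

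In periportal LSEC the listed genes Msr1, Ntn4 and Cd36 were higher. Msr1 was at 264, 373 and 439 CPM in periportal and 34.5, 52.8 and 161 CPM in pericentral LSEC, -2.09 ± 0.30 (adjusted p = 1.39e-05). Abcc9 was at 27.3, 529 and 442 CPM in periportal and 0, 141 and 89.97 CPM in pericentral LSEC, -2.22 ± 0.32 (adjusted p = 1.88e-05), so that the channel gene that rose in NASH was higher in periportal cells of each mouse. Within the pericentral class alone it was at 0 CPM in the control and at 141 and 90.0 CPM in the NASH mice. The sulfotransferase gene Chst2 (-1.90 ± 0.35 (adjusted p = 7.60e-04)), Ivns1abp (-1.34 ± 0.26 (adjusted p = 0.00189)) and Ldb2 (-1.23 ± 0.30 (adjusted p = 0.0195)) were also higher in periportal LSEC, and so was S100a9, a neutrophil gene (-1.63 ± 0.29 (adjusted p = 6.01e-04)). Adam23 (-0.64 ± 0.21 (adjusted p = 0.187)), Efnb1 (-0.26 ± 0.24 (adjusted p = 0.831)) and Sox17 (-0.56 ± 0.38 (adjusted p = 0.735)) were not called.

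**Figure D5:**
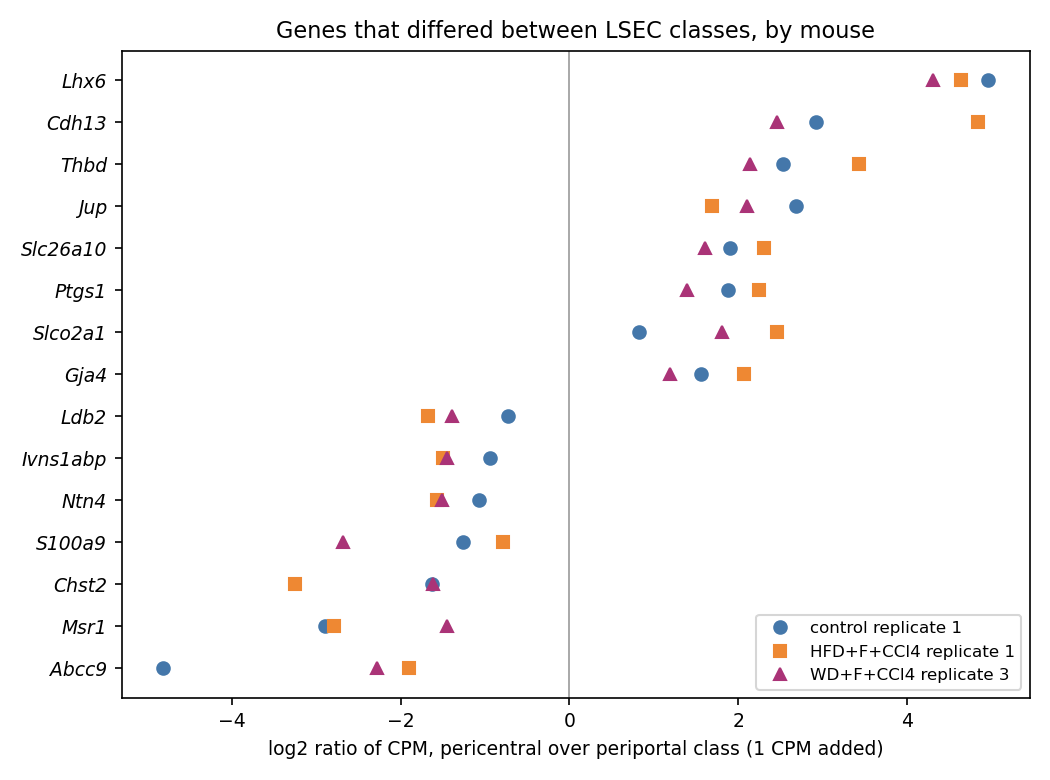
Log2 ratio of CPM in pericentral over periportal LSEC (1 CPM added) of 15 genes, 1 symbol for each of the 3 mice. Each of the 15 genes has the same sign in the control mouse and in both NASH mice.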

How the data were processed

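The authors deposited 1 matrix of raw UMI counts for 55450 genes and all 8 mice. Per the labels and the study's methods, reads were demultiplexed with bcl2fastq 2.20 and counted with Cell Ranger on GRCm38, with the file header naming Cell Ranger 4.0.0 and the study's methods a later version, a disagreement that could not be settled here. For doublet removal, correction for free RNA, subsampling of reads and the annotation release, nothing is stated in the sources used here. A suffix on each barcode gave the mouse.

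LSEC were selected by the rule given at the opening. The members, gene lists and tests were chosen with earlier results of these data known. Raw counts were summed over the LSEC of each mouse with 20 or more LSEC and tested with edgeR 4.0.16 (TMM, 3 groups in 1 fit, quasi-likelihood test after filterByExpr at a minimum count of 10) in R 4.3.3 with limma 3.58.1, with Benjamini-Hochberg adjustment over all genes tested and a threshold of 0.05. DESeq2 1.42.0 was an alternative. NASH was the mean of both models. The difference of effects used 2 sums a mouse (LSEC and other kept cells) with the mouse as block. SE is the log2 fold change divided by the square root of F. Medians of the lists were the same with genes at 0 in a group put at the bound of 3 UMIs. Shares were compared with exact permutation tests over mice, adjusted over 2 comparisons.

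Named genes were the markers and genes of the rule, from each of 17 pathway and 9 other-cell lists up to 4 of the highest mean CPM and 4 of the lowest adjusted p, the 12 largest rises and falls with a mean of 30 CPM or more, and the 8 lowest adjusted p in each direction of the other tests. Some genes that the rule names are counted but not reported here. Same-numbered control and HFD+F+CCl4 mice did not deviate together (r = 0.0427 over 10346 genes), so the numbers were not taken as pairs. The kit counts 3' ends by strand, and genes with near-identical copies (Serpina1, Mup, immunoglobulin and T cell receptor genes) are uncertain. For 108 symbols shared by several genes, rows were kept apart by Ensembl ID. Both tools were tested on simulated data. Alternatives were other cell filters, doublet removal (the highest Scrublet scores, 0.8% per 1000 barcodes, scanpy 1.11.5), normalization, filters, tools, a replicate block and leaving out each mouse. Python 3.11.15, numpy 2.4.6, pandas 2.3.3, SciPy 1.17.1 and matplotlib 3.10.9 were used.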

Additional observations from a re-analysis of the deposited data

Results flagged for a closer look

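The NASH effect differed between LSEC and the other kept cells of the same mice, by the test of the difference itself, with a higher effect in LSEC for 101 genes and a lower effect for 503 genes of 14836 tested (edgeR quasi-likelihood test, adjusted p under 0.05), a split that became 382 higher and 551 lower without control replicate 1. Between the 2 HFD+F+CCl4 mice and the single WD+F+CCl4 mouse, 7 genes differed in LSEC, of which the collagens and Acta2 were high in HFD+F+CCl4 replicate 1. None was called without doublets by edgeR and 1 was called by DESeq2, and a difference of that mouse cannot be told apart from one of the models.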

How the results depend on the processing

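The counts of called genes depended on the cells and mice used, and the causes were not tested. In the order NASH, HFD+F+CCl4 and WD+F+CCl4 against control (879, 522 and 594 genes), LSEC with 4 or more UMIs of Clec4g, Stab2 and Lyve1 gave 421, 284 and 290 genes, DESeq2 gave 548, 293 and 359, all mice with 1 or more LSEC gave 389, 266 and 311, LSEC without a Ptprc UMI gave 247, 150 and 171, and LSEC without doublets gave 533, 283 and 350. Leaving out 1 mouse at a time gave 402 (without WD+F+CCl4 replicate 3) to 1501 (without control replicate 1) for NASH, with 504 without HFD+F+CCl4 replicate 1, and without control replicate 1 the split was 698 higher and 803 lower. The ranges were 111 (without HFD+F+CCl4 replicate 1) to 1240 (without control replicate 1) for HFD+F+CCl4 and 518 to 1365 (without control replicate 1) for WD+F+CCl4.

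Between the models the 7 genes became 19 with 4 or more UMIs, 1 with DESeq2, 3 with all mice, 18 with no filter on low counts, 77 with only these groups, 33 with over 1000 genes per cell and 0 without doublets, and 4 to 96 when 1 mouse was left out, with 14 without HFD+F+CCl4 replicate 2 and 90 without control replicate 2. The 604 genes whose effect differed from other kept cells became 399 without TMM, 938 with no filter and 296 (without HFD+F+CCl4 replicate 2) to 933 (without control replicate 1). The 59 zonation genes became 36 with DESeq2 and 41 to 111 (without control replicate 1).

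NASH minus control in the share of LSEC reversed from -1.04 to 0.544 percentage points with 4 or more UMIs, and was -1.96 to -0.593 when 1 mouse was left out. With each cell thinned to 800 UMIs it was -0.103 percentage points. WD+F+CCl4 minus HFD+F+CCl4 ranged from -2.14 (without WD+F+CCl4 replicate 3) to 2.03, reversing also without HFD+F+CCl4 replicate 2 (-0.690) and replicate 3 (-0.913). The replicate block, which could be fitted only for HFD+F+CCl4 against control, gave 378 genes, and its numbers do not pair the mice. The comparison of LSEC with vascular endothelial cells was not run, as the controls held 10 and 0 such cells.

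Of 129 named genes called in NASH against control, over 15 alternatives and 1894 values, 1549 kept their direction and call, 345 kept the direction without the call and 0 reversed. Many of these genes were named by their adjusted p or fold in the same comparison, which favours a kept direction. Of all 879 called genes, 4 reversed without the LSEC with a Ptprc UMI and 2 with 4 or more UMIs. In addition 1 reversed without HFD+F+CCl4 replicate 1 and 1 without control replicate 2. Most of the 55 named genes called in each alternative where they were tested are genes of hepatocytes, macrophages or blood cells. Among these are Alb, Apoa1, C1qa, Marco, Nkg7, Trbc2, Igkc and Ptprc. The 55 also hold mt-Nd3, mt-Nd4l and Gm28438, which differed across all cells. The others include Abcc9, Ccn2, Cd34, Cxcl9, Edn1, Esm1, Fabp5, Fbn1, Fn1, Galnt15, Hmox1 and Timp2. HFD+F+CCl4 replicate 2 and control replicate 2 were the shallowest, at 143526 and 180035 UMIs, and the NASH count was 774 and 905 without them.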

Other observations

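Genes outside the rule were ranked by their level in LSEC over the other kept cells of the same mouse, taking the lowest fold among the 5 mice. The predicted gene Gm37060 came first, with a lowest fold of 11.2. After it came Nes (nestin, an intermediate filament protein, median 105 CPM, lowest fold 7.93, median fold 12.3), Gja4 (connexin 37, 161 CPM, 6.75 and 15.7) and Mmrn2 (an endothelial matrix protein, 446 CPM, 6.503 and 13.996). Next were Btnl9 (258 CPM, 6.498 and 16.2), Fam171a1 (176 CPM, 6.08 and 12.9), Timp3 (613 CPM, 6.06 and 11.3) and Lama4 (a laminin chain, 174 CPM, 6.04 and 13.5). These values describe the selected cells and are no test. The 3 NASH mice left out of the gene comparisons held 8 LSEC. Of Gpr182, which was not in the rule, they had 13 of 17670 UMIs in HFD+F+CCl4 replicate 3, 17 of 3438 UMIs in WD+F+CCl4 replicate 1 and 1 of 3954 UMIs in WD+F+CCl4 replicate 2.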
